A study of Mus musculus with 2 samples.

Results

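The miR-34 and miR-449 family and Mir202 were followed in microRNA (miRNA) sequencing libraries from the mouse adrenal gland. The genes taken were Mir34a, Mir34b, Mir34c, Mir449a, Mir449c and Mir202, found by their GENCODE M21 names in the deposited count tables, which makes 6 of the 2202 miRNA genes counted. Mir449b, which lies between Mir449c and Mir449a, is given beside them so that the Mir449 locus is complete. The libraries form 1 group, adrenal tissue of adult female mice labelled 5xFAD/CAST and 8 to 10 months old, with biological replicates 1 and 2. 5xFAD is a transgenic Alzheimer's disease model whose human transgenes are driven by the neuronal Thy1 promoter, and CAST denotes a strain founded from wild mice. The labels do not say which animals carry the transgenes. Both biosamples bear 1 donor identifier, so p-values here compare only these libraries, whose differences may be technical. Those of Fisher's exact test cover counting error alone and hold no spread between libraries. There is no contrast between conditions: the comparisons are between the genes within a library and between the libraries.

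Mature miRNAs pair with messenger RNAs mainly through the seed, bases 2 to 8 from the 5′ end, and genes whose products share a seed are grouped as a family. Mir34a and the Mir34b/Mir34c pair are direct transcriptional targets of the tumor suppressor p53, and their products restrain cell cycle progression. Mir34b, Mir34c and the Mir449 genes are known from multiciliated cells, where they act in the formation of motile cilia. Mir202 is known from the steroid-making and germ-cell-supporting cells of testis and ovary, organs that share an embryonic origin with the adrenal cortex.

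The sequences below show what joins 5 of the members and sets Mir202 apart. They are RefSeq entries on GRCm38.p6, the assembly called mm10 in the notes deposited with the counts, and 6 of the 7 genes named had an entry. Capitals mark the seed.
miR-34a-5p: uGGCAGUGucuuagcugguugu
miR-34b-5p: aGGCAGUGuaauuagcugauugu
miR-449a-5p: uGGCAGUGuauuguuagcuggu
miR-449c-5p: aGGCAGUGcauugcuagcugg
miR-34b-3p: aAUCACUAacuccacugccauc
miR-34c-3p: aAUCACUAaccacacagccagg
miR-202-5p: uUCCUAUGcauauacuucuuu
miR-202-3p: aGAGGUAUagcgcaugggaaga

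The 5′ arms of Mir34a, Mir34b, Mir449a and Mir449c carry 1 seed, GGCAGUG. Of Mir34c only the 3′ arm is printed, as the RefSeq table holds no mature entry for miR-34c-5p. The Mir34c hairpin holds the same letters in its 5′ part. No other gene among the 1738 mature entries of the RefSeq table has these letters at bases 2 to 8. These entries lack miR-34c-5p and Mir449b, so they do not hold the whole family. Outside the seed the printed 5′ arms part to unequal degrees. Compared base by base from the 5′ end, miR-34a-5p and miR-449a-5p are the same at 15 of 22 positions. For miR-34a-5p and miR-34b-5p it is 11 of 22, and for miR-449a-5p and miR-449c-5p 18 of 21. The comparison allows no gap and leaves out miR-34c-5p. After the seed, like bases of miR-34b-5p stand 1 position further on than in miR-34a-5p, so they count as unlike. These counts therefore do not rank the arms by likeness. In the hairpins printed below, Mir34b and Mir34c are nearly the same in the bases that follow the seed. The 3′ arms of Mir34b and Mir34c share their own seed and are the same at 17 of 22 positions. The seed of miR-202-3p is close to that of let-7, with 6 of 7 bases equal to let-7a-5p and the substitution G8U, written with the let-7a base first and counted from the 5′ end. The only other mature entry with the miR-202-3p seed is let-7j.

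Mir34b and Mir34c come from 1 locus, and their hairpins are shown because the levels of these neighbors were far apart. Capitals mark the letters GGCAGUG, searched on the given strand, which stand once in each hairpin, at positions 15 and 14. The same letters occur in 17 of 1005 RefSeq hairpins (1.69%), of which 5 belong to the genes described here.
Mir34b, chr9:51103562-51103645, minus strand: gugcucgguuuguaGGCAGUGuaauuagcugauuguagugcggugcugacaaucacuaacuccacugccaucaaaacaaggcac
Mir34c, chr9:51103034-51103110, minus strand: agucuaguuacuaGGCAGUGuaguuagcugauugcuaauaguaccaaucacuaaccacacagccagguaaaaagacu

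In mm10, Mir34a (ENSMUSG00000065493.1) lies at chr4:150068454-150068555 on the plus strand, and its end overlaps an exon of the unclassified transcript Gm37795. Mir34b (ENSMUSG00000065492.1) and Mir34c (ENSMUSG00000065587.1) are 451 bases apart, within an intron of Btg4, which is transcribed from the opposite strand. Mir449c (ENSMUSG00000076146.1) at chr13:113035983-113036091 and Mir449a (ENSMUSG00000065575.1) at chr13:113037534-113037624 lie in introns of Cdc20b and on its strand, 1442 bases apart. Mir449b (ENSMUSG00000078027.1) sits 35 bases before Mir449a. Mir202 (ENSMUSG00000065502.1) occupies chr7:139957689-139957760 on the minus strand, in an exon of the noncoding gene Gm2044. The longest exact stretch that any of these 7 genes shares with another annotated miRNA gene runs from 11 to 14 bases. A full mature miRNA of these genes thus has no exact copy in another annotated miRNA gene. Exact stretches do not cover near matches, such as the 5′ arms of Mir34b and Mir34c. The mismatches allowed in alignment are not known, so whether reads of that pair were always told apart was not tested.

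Replicate 1 held 3635851 and replicate 2 held 6924829 reads on miRNA genes in the strand column, the column that counts reads of 1 strand, and the tables listed 7774567 and 15391360 reads in all. Multimapping reads, 31.6% and 33.6% of all reads, were assigned to no gene. Levels are CPM, reads per 1000000 miRNA-gene reads. The tissue label was set against markers: all 4 genes of the adrenal medulla and endocrine list were detected, with summed levels of 51239 and 48779 CPM, most of it from Mir375. Mir126a of endothelium stood at 49108 CPM, while the liver marker Mir122 was at 93.3 CPM and the striated muscle list summed to 5.50 and 5.34 CPM, with 4 of its 6 genes at 0 and each of those 4 sharing a stretch of at least 20 bases with another gene. Counts are per hairpin gene, so the 5′ and 3′ arms are not separated. In bulk tissue, fewer cells of a type and less RNA per cell cannot be told apart.

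Of the 6 members, 5 were detected, meaning at least 10 reads in each library, against 16.2% of all 2202 miRNA genes. Mir34a and Mir34c were abundant, Mir34b, Mir449a and Mir202 were low, and Mir449c was near the counting limit. Together the 6 genes took 0.523% of the miRNA-gene total of replicate 1 and 0.518% of that of replicate 2. The exact Clopper-Pearson 95% intervals, 0.515 to 0.530% and 0.512 to 0.523%, overlap. All intervals given are of that kind and cover counting error only, since amplified reads carry no molecular identifiers.

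Mir34a, the p53 target of chromosome 4, was the highest. It had 10587 reads in replicate 1 and 23398 in replicate 2, or 2912 CPM (95% interval 2857 to 2968) and 3379 CPM (3336 to 3422), a mean of 3145 ± 330 CPM (SD, n = 2). That put it at rank 41 of all genes in replicate 1 and rank 38 in replicate 2. Multimapping reads count for no gene, so genes that share sequence with others may rank too low here and below. Mir34a was higher in the deeper library, replicate 2.

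Mir34c followed with 7615 and 11519 reads, or 2094 CPM (2048 to 2142) and 1663 CPM (1633 to 1694), with a mean of 1879 ± 305 CPM (SD, n = 2) and ranks 50 and 56. Its neighbor Mir34b had 465 and 442 reads, or 128 CPM (116 to 140) and 63.8 CPM (58.0 to 70.1), with a mean of 95.9 ± 45.3 CPM and ranks 169 and 196. Both genes of the locus were lower in replicate 2, in the opposite direction to Mir34a.

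Mir449a, the main product of the Cdc20b intron, had 218 and 342 reads, or 60.0 CPM (52.3 to 68.5) and 49.4 CPM (44.3 to 54.9), with a mean of 54.7 ± 7.48 CPM (SD, n = 2). Mir449c had 2 and 7 reads, or 0.550 CPM (0.0666 to 1.99) and 1.01 CPM (0.406 to 2.08). Mir449b had 0 reads in replicate 1 and 1 read in replicate 2. For the 0 reads the limit of 3 counts is 0.825 CPM, and the exact interval runs to 1.015 CPM. The counting intervals of Mir449c overlap between the libraries, and no difference in it was detectable at this depth.

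Mir202, the gonadal miRNA, had 118 and 137 reads, or 32.5 CPM (26.9 to 38.9) and 19.8 CPM (16.6 to 23.4), with a mean of 26.1 ± 8.96 CPM (SD, n = 2). Its ranks were 241 and 253, in the lower part of the 356 detected genes. It was thus read in both libraries, and the intervals of the libraries do not overlap.

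**Figure D1:**
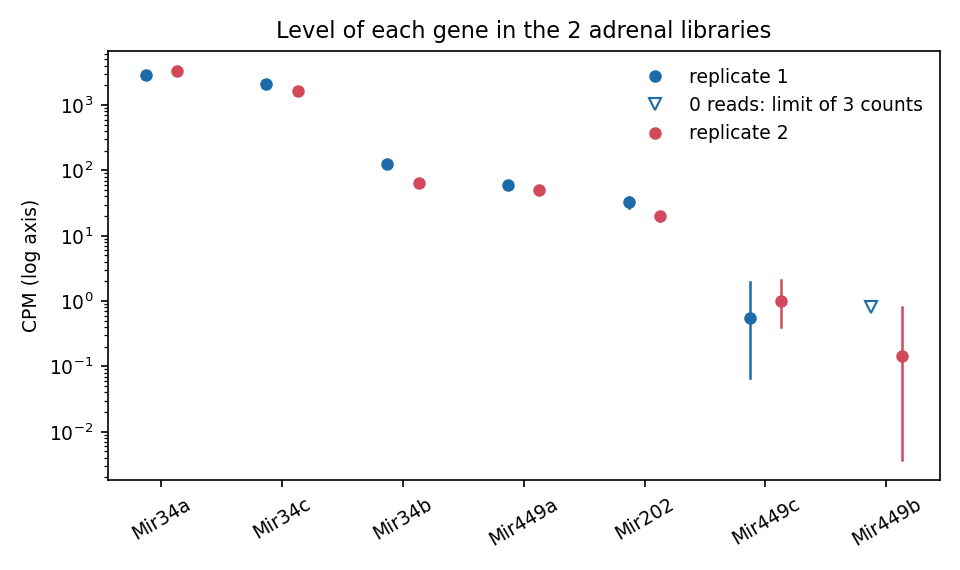
Level of each gene in CPM on a log axis, with 1 point for each library and lines for the exact 95% counting interval. The open triangle marks 0 reads of Mir449b in replicate 1, drawn at the limit of 3 counts, and lines shorter than a point are hidden by it. Mir34a and Mir34c stand at 1663 CPM or more in both libraries, whereas Mir34b, Mir449a and Mir202 stand between 19.8 and 128 CPM.

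The order Mir34a, Mir34c, Mir34b, Mir449a, Mir202, Mir449c was the same in both libraries, and no neighbors in it overlapped over the 2 libraries. The mean of Mir34a exceeded that of Mir34c by 1266 CPM, more than either SD. Mir34b exceeded Mir449a by 41.2 CPM on the mean, less than the 45.3 CPM SD of Mir34b, so their means did not differ beyond that spread between libraries. Within a library Mir34b was the higher, 2.13 times Mir449a in replicate 1 and 1.29 times in replicate 2. Ligation and amplification can favor one sequence over another, which limits any comparison between genes. A read covers a mature miRNA rather than a piece of a long transcript, but scaled to the hairpin length the order was also kept. On that scale Mir34a stood at 28.6 and 33.1 CPM per base in replicates 1 and 2, Mir34c at 27.2 and 21.6 CPM per base, and Mir34b at 1.52 and 0.760 CPM per base.

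**Figure D2:**
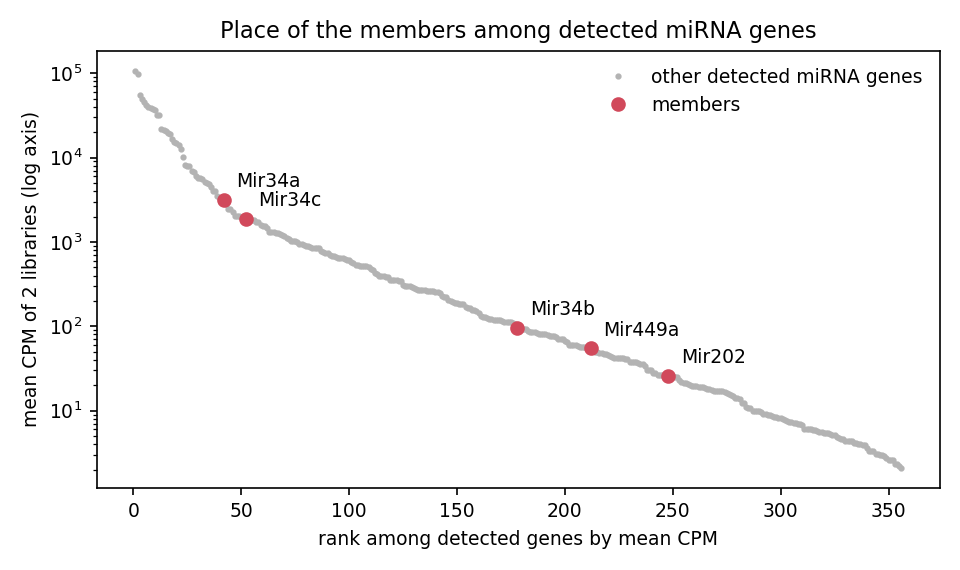
Mean CPM of the 356 detected miRNA genes on a log axis, ordered from the highest, with the 5 detected members in red. Mir34a and Mir34c lie at places 42 and 52, and Mir34b, Mir449a and Mir202 at 178, 212 and 248. Multimapping reads are left out, so genes that share sequence with others may stand too low.

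Counted in reads, Mir34a took more of the family than the Mir34b/Mir34c pair and the Mir449 locus together in both libraries. Its share of the reads of Mir34a, Mir34b, Mir34c and the 3 Mir449 genes came to 56.1% in replicate 1 (55.3 to 56.8%) and 65.5% in replicate 2 (65.03 to 66.02%), with a mean of 60.8% ± 6.70 (SD, n = 2). The pair took 42.8% (42.1 to 43.5%) and 33.5% (33.0 to 34.0%), and the Mir449 locus 1.16% (1.02 to 1.33%) and 0.980% (0.881 to 1.09%). Set against the pair, Mir34a had 1.31 times its reads in replicate 1 and 1.96 times in replicate 2.

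The make-up of the family thus differed between the libraries beyond counting error. The share of Mir34a differed with p = 1.15e-103 by Fisher's exact test (two-sided), and 9.18e-103 after Benjamini-Hochberg adjustment over the 8 shares compared. The test holds no allowance for spread between animals or preparations. A share within the family does not depend on the library total or its scaling.

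**Figure D3:**
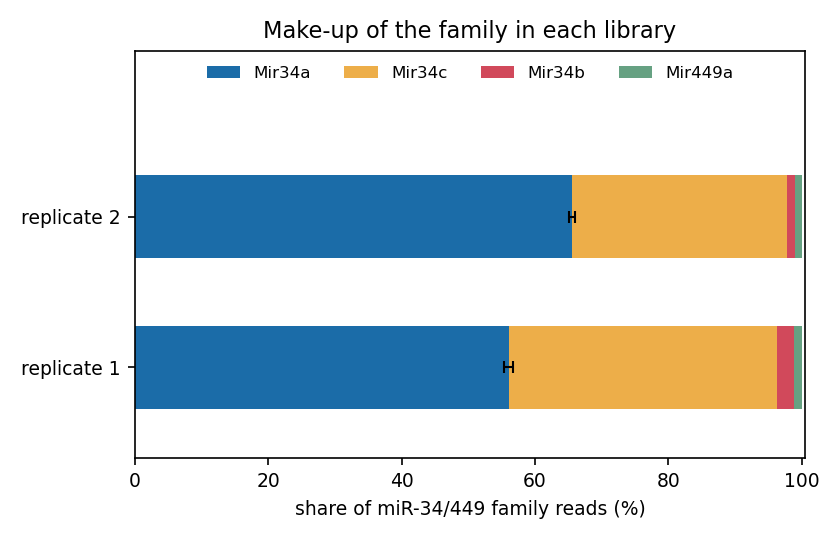
Share of the family reads held by Mir34a, Mir34c, Mir34b and Mir449a in each library, in percent from 0, with the exact 95% interval of the Mir34a share in black. Mir34a holds 56.1% in replicate 1 and 65.5% in replicate 2, and Mir449a stands as the narrow band at the right edge. Mir449b and Mir449c, with 7 reads or fewer, are too few to be seen.

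Within the Btg4 intron, Mir34c outnumbered Mir34b by 16.4 to 1 in replicate 1 and 26.1 to 1 in replicate 2. The share of Mir34b in the pair was 5.75% (5.26 to 6.29%) and 3.70% (3.36 to 4.05%), a mean of 4.73% ± 1.46 (SD, n = 2). It differed between the libraries by Fisher's exact test (p = 9.58e-12, adjusted p = 1.92e-11 over the 8 shares). Mir34b was thus lower in replicate 2 also relative to Mir34c.

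Within the Cdc20b introns 1 gene likewise held nearly all reads. Mir449a held 99.1% of the locus reads in replicate 1 (96.8 to 99.9%) and 97.7% in replicate 2 (95.6 to 99.0%), a share that did not pass Fisher's exact test between the libraries (adjusted p = 0.378). Mir34a exceeded Mir449a by 48.6 to 1 and 68.4 to 1. Mir34c exceeded it by 34.9 to 1 and 33.7 to 1, and the share of Mir449a in the reads of these genes was 2.78% (2.43 to 3.17%) in replicate 1 and 2.88% (2.59 to 3.20%) in replicate 2. These intervals overlap, and the adjusted p of Fisher's exact test was 0.694. The share of Mir449a in the reads of Mir34a and Mir449a was 2.02% (1.76 to 2.30%) in replicate 1 and lower in replicate 2, at 1.44% (1.29 to 1.60%), where the adjusted p of Fisher's exact test was 0.000177.

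**Figure D4:**
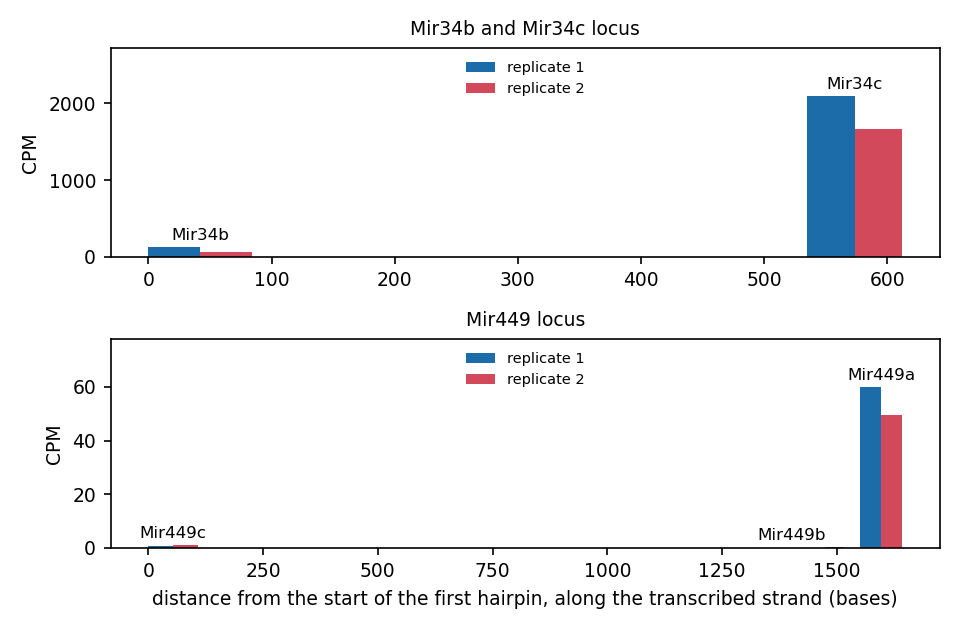
CPM of each hairpin in the Mir34b/Mir34c locus (top) and the Mir449 locus (bottom), against the distance in bases from the start of the first hairpin along the transcribed strand. Each hairpin holds 1 bar for each library, drawn over its length, and both vertical axes start at 0 but differ in range. In each locus the last hairpin carries nearly all reads, Mir34c at 2094 and 1663 CPM and Mir449a at 60.0 and 49.4 CPM.

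Each gene was then compared between the libraries, with p-values adjusted over all 455 genes that had at least 10 reads in both together. By Fisher's exact test all 5 members tested differed, 1 higher and 4 lower in replicate 2, where 52.5% of all genes tested differed. A share this large among all genes means that the call sets no member apart. Mir34a had a log2 ratio of 0.21 (adjusted p = 6.42e-37), Mir34c of -0.33 (adjusted p = 4.03e-53) and Mir34b of -1.0 (adjusted p = 1.40e-24). Mir202 had a log2 ratio of -0.71 (adjusted p = 0.000241) and Mir449a of -0.28 (adjusted p = 0.0498, just inside the threshold of 0.05).

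The members' median log2 ratio was -0.33, against -0.18 over all genes tested. TMM scaling, which equalizes the bulk of genes, raised every log2 ratio by 0.20 and moved the median over detected genes from -0.19 to 0.01. Over all genes an exact binomial test on that scale called 124 higher and 116 lower, where Fisher's exact test on plain totals called 77 higher and 162 lower. On that scale Mir34a stood at 0.41, Mir34c at -0.13, Mir34b at -0.80, Mir202 at -0.52 and Mir449a at -0.08, so no direction turned, and Mir449a was no longer called (adjusted p = 0.668).

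When edgeR's exact test was given a common dispersion for all genes, which adds the spread between the libraries to counting error, 0 of the 5 members were called, each with an adjusted p of 1, where 1.1% of all genes tested were called. Their unadjusted p in edgeR's exact test ran from 0.131 for Mir34b to 0.741 for Mir34a, none under 0.05. The biological coefficient of variation behind that test was 31.4% over 356 genes, taken from these same libraries. Mir34b had the widest ratio of the members: 37 of the 356 detected genes had a larger absolute log2 ratio, and among the 69 detected genes within 2-fold of its level 4 did. For Mir34a 246 of the 356 had a larger one, for Mir449a 223, for Mir34c 204 and for Mir202 91.

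**Figure D5:**
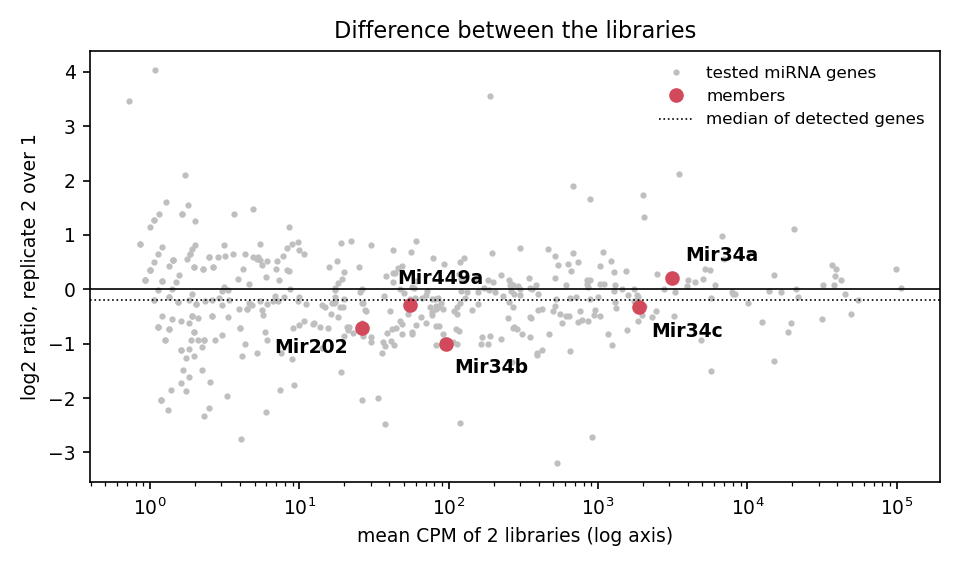
Log2 ratio of replicate 2 over replicate 1 against mean CPM (log axis) for the 455 genes tested, with the 5 tested members in red. The solid line marks equal CPM and the dotted line the median of detected genes at -0.19. Mir34a lies above both lines, Mir34c, Mir449a, Mir202 and Mir34b below both.

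Genes with levels most like the members were found by distance in log2(CPM + 0.5) over the 2 libraries. Nearest to Mir34a were Mir433 (distance 0.20), Mir28a (0.29) and Mirlet7f-2 (0.49). Nearest to Mir34c were Mir615 (0.09), Mir107 (0.10) and Mir351 (0.12), and nearest to Mir34b were Mir1249 (0.08), Mir302a (0.13) and Mir136 (0.22). Mir449a had Mir669c (0.07), Mir679 (0.14) and Mir760 (0.20) beside it, and Mir202 had Mir702 (0.06), Mir8112 (0.07) and Mir294 (0.10). None of the 15 genes lies on the chromosome of a member it resembles other than Mir294, which is on chromosome 7 like Mir202. Mir28a, Mirlet7f-2, Mir302a, Mir136, Mir107, Mir669c and Mir8112 share at least 20 bases with another miRNA gene. Multimapping reads are not counted, so the levels of these genes may be too low. With 2 libraries the likeness to the members says no more than that the counted levels are close.

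Other miRNA genes linked to p53 were read from a list of 12, of which 11 matched a gene and 9 were detected. By Fisher's exact test 1 was higher and 6 were lower in replicate 2 of the 10 tested, with a median log2 ratio of -0.37 against -0.18 for all genes, and by edgeR's exact test 0 were called. Mir143, of smooth muscle, was the highest at 22723 and 20631 CPM, and Mir107, which shares sequence with another miRNA gene, stood at 1955 and 1700 CPM. Mir192 and Mir194-2, known from kidney and intestine, were at 29.2 and 16.7 CPM and at 26.4 and 15.7 CPM, and Mir194-2, like Mir107, shares at least 20 bases with another miRNA gene, and multimapping reads are not counted. Over all 455 genes tested, 77 were higher and 162 lower by the same test, so a majority of lower calls was common to the table on plain totals.

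Beside the genes of ciliated cells, the epithelial list had 5 of 7 genes detected, with sums of 843 and 936 CPM, led by Mir203 at 792 and 897 CPM. Mir200c was at 26.8 CPM on the mean, and Mir200a and Mir205 at 0.839 and 0.846 CPM. Mir429 stood at 9.90 CPM in replicate 1 and 2.02 CPM in replicate 2, and it was lower there by Fisher's exact test (adjusted p = 2.74e-07), against the direction of the list's sum. By Fisher's exact test on plain totals Mir34b, Mir34c and Mir449a were each lower in replicate 2, as were 4 of 4 leukocyte genes (sums of 1147 and 854 CPM), both red cell genes (427 and 175 CPM) and Mir126a. The same test called 162 of all 455 genes tested lower and 77 higher. Lower calls also fell on 2 of 2 smooth muscle genes and 2 of 3 kidney and intestine genes tested. In the adrenal medulla and endocrine list 2 of 4 were lower and 1 higher, Mir122 of liver was higher, and 0 of 2 striated muscle genes tested were called. With edgeR's exact test 0 genes of the ciliated, leukocyte, red cell and endothelial lists were called. Mir449b and Mir449c, the other genes of the ciliated list, had too few reads to be tested and a log2 ratio of 0.66 each. Among all detected genes 230 of 356 had a log2 ratio below 0 on plain totals and 177 after TMM scaling. Replicate 2 is also the deeper library, by 1.90 times. The part of blood and vessel cells or of depth in the differences of the members was not tested.

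Beside Mir202, the X-linked miRNA cluster of testis was nearly unread: of 14 genes listed 12 matched, and 11 of these had 0 reads in both libraries, while Mir741 had 2 reads in replicate 1. None of the 12 shares a stretch of 20 bases with another miRNA gene. The limit of 3 counts taken for 0 reads is 0.825 CPM in replicate 1 and 0.433 CPM in replicate 2. The miRNAs known from ovarian granulosa cells, which other tissues also express, were all 6 detected. They were led by Mir322 at 11053 and 9273 CPM and by Mir132 at 1005 and 1436 CPM, with 3 higher and 2 lower in replicate 2 by Fisher's exact test, which called 52.5% of all genes, and 0 called by edgeR's exact test. The annotated neighbor of Mir202 in the same noncoding gene, mmu-mir-7686, 66 bases away, had 0 reads in the strand column of both libraries, and it was named after its counts were seen.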

How the data were processed

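Small RNA of adrenal gland was sequenced in 2 libraries of 1 group. The authors deposited raw read counts per miRNA gene, 1 table per library with 3 unnamed count columns, made on mm10 with GENCODE M21, as the notes beside these deposited tables state. The aligner, the counting program and the trimming were not given in the sources used here. From the values, column 3 was taken as reads of 1 strand and used here, column 2 (both strands) served as check, and column 4 as the other strand. In 5 of the 6 members, columns 2 and 3 are equal in both libraries. Entries that name no gene were left out of totals, among them unmapped reads (16.1% and 16.5% of all reads).

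CPM, Fisher's exact test (two-sided, both libraries, Benjamini-Hochberg over all genes tested, threshold 0.05), exact Clopper-Pearson intervals at 95% and log2 ratios with 0.5 counts added were computed from them. A limit for 0 is 3 counts. No quasi-likelihood test was run, as a contrast between 2 single libraries leaves no residual degree of freedom. edgeR's exact test used plain totals and the common dispersion of an intercept-only, TMM-normalized model. The libraries differed beyond sampling noise (chi-square on 454 degrees of freedom, 232300) and were counted as 2. Fisher's exact test, the binomial test and the log2 ratio were tried on simulated counts that held sampling noise only. That trial does not cover spread between libraries, edgeR's exact test or the shares. Alternatives were the both-strand column, TMM, DESeq2 size factors, all reads as total, other minimum counts, another added count, hairpin length and each replicate alone. Named are the members, Mir449b, the 3 nearest genes of each detected member and the leading 2 of each list; further marker genes were named after their values were seen. The members and lists were chosen with earlier results of these data known. Tools were Python 3.11.15 with scipy 1.17.1, numpy 2.4.6, pandas 2.3.3 and matplotlib 3.10.9, and in R 4.3.3 DESeq2 1.42.0 and edgeR 4.0.16.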

Additional observations from a re-analysis of the deposited data

Results flagged for a closer look

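The column of the other strand, used in no comparison above, held 13 reads on Mir34b in replicate 2, above the 3 counts that a count of 0 allows, and 3 reads in replicate 1. These were 2.86% (exact Clopper-Pearson 95% interval 1.53 to 4.84%) and 0.641% (0.132 to 1.86%) of the Mir34b reads of both strands. Over all 2138 genes without a miRNA gene on the opposite strand, other-strand reads were 0.00510% of reads in replicate 2 and 0.00703% in replicate 1. By number of such reads Mir34b ranked 2 in replicate 2 and 6 in replicate 1 among these genes, while the other 5 members had 0 in both libraries. The cause was not tested.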

How the results depend on the processing

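The count of members called, 5 by Fisher's exact test, was 5 with the both-strand column, with all reads as total and with at least 10 reads in each library, and 4 with TMM, DESeq2 size factors or no low-count minimum. It was 0 with edgeR's exact test, which adds the spread between libraries. That spread was taken from the same 2 libraries, so a difference of usual size for these genes could hardly be called. Over 25 further settings of single log2 ratios without edgeR, 0 reversed and 2 lost their call, both of Mir449a (-0.08 with TMM and -0.10 with DESeq2 size factors). The settings with another added count reuse the same Fisher's exact test, so in them a call cannot change. Detection gave 5 members, or 6 with at least 1 read in each library. Without one replicate or the other, the Mir34a share ranged from 56.1 to 65.5%, the Mir34b share of its pair from 3.70 to 5.75% and the number of members detected was 5 each time. Per base of hairpin the shares were 54.2 and 4.35% on the mean of the libraries. On that scale Mir34a, at 28.6 CPM per base in replicate 1, lay below Mir34c and Mir34b together (27.2 and 1.52). In replicate 2, at 33.1 CPM per base, it lay above them (21.6 and 0.760). In the both-strand column every member's level was higher, and those of Mir34a (3587 CPM) and Mir449a (62.4 CPM) moved beyond 1 SD. The reads of Mir34a and Mir449a are the same in both columns. The both-strand totals are smaller, 3159960 and 6119201 reads, with 476126 and 805965 reads left as ambiguous. With TMM or DESeq2 size factors no member's level moved beyond 1 SD. Single replicates cannot lie beyond 1 SD of a mean of 2 and are no check of the levels. With all reads as total every member's level was lower, for example 1441 per 1000000 reads for Mir34a, since that total holds unassigned reads. Depth limits Mir449c and Mir449b, with 7 reads or fewer.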
